A study of Mus musculus with 50 samples.

Results

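The ubiquitin system marks proteins for destruction and the proteasome degrades them, and 200 of the 22824 cDNA clones on the arrays carried names of this system. They were chosen by name alone, as clones named for the proteasome, ubiquitin, ubiquilin, a cullin, the COP9 signalosome or an F-box protein, and no measured value entered the choice. They represented 125 genes, of which 49 had several clones, and Ube3a had most, with 6. The RNA came from micropunches of the hypothalamic paraventricular nucleus (PVN) and adjacent tissue of single-housed male mice aged 3 to 5 months, of the inbred strains DBA/2J and C57BL/6J. In each strain, stressed mice were forced to swim for 5 min and killed 4 h or 8 h later, non-stressed mice did not swim, and all were killed at the same hour of the day. Each of the 6 conditions (DBA/2J or C57BL/6J, stressed and killed after 4 h or 8 h, or non-stressed) was a single pool of RNA from 6 animals, amplified in 2 rounds and labelled with Cy3 or Cy5. There were 5 comparisons, each on 10 arrays of the same 2 pools with the dyes exchanged on 5 of them. These were DBA/2J against C57BL/6J without stress, and 4 h and 8 h after stress against no stress within each strain.

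A p-value here therefore compares 2 pools over repeated labelling and hybridisation and holds no spread between animals. In such tissue, fewer cells of a type and less RNA per cell cannot be told apart. Both stress times of a strain were set against the non-stressed pool of that strain, and the 2 non-stressed pools were also those of the strain comparison, so these comparisons share RNA and their values are given side by side. All ratios follow the dyes as labelled for each array, and they run opposite to the fold changes published from these arrays. The direction used here rests on the dye labels alone, and the arrays do not settle it. The study's PCR, which uses neither Cy3 nor Cy5, goes with the published direction. It reported Gnai2 at 4 h and App at 8 h as higher after stress in DBA/2J. Both genes are outside this system, and the study's other assays are not analysed here. The words higher, lower, rose and fell hold by the labelled dyes. The clone of Nnt, a gene damaged in C57BL/6J, was not above the empty spots on any array of the strain comparison and gave no reading of the direction. Turning every sign would exchange higher and lower throughout and change no size or p.

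Signal limited what could be read. A clone was taken as above background in a pool on an array when its intensity passed the 95th percentile of that array's empty spots. Of the 200 clones, 7 passed on all 50 arrays, 6 on none and 71 (35.5%) on at least 25, against 23.0% of all 22824 clones, and none was saturated. At least 1 array showed the clone above background in either pool for 96 clones in the strain comparison, 112 in DBA/2J at 4 h, 41 in DBA/2J at 8 h, 189 in C57BL/6J at 4 h and 128 in C57BL/6J at 8 h. A fold is given only where a pool was above background, and medians over a role include its dim clones.

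Ubiquitin, a small protein made from Ubb and other genes, is activated by an E1 enzyme, passed to an E2 conjugating enzyme and joined to its target with the help of an E3 ligase. Cullins are the scaffolds of a large E3 family, in which F-box proteins choose the target, the ubiquitin-like protein Nedd8 switches the cullin on and the COP9 signalosome removes Nedd8 again. Chains of ubiquitin bring the target to the 26S proteasome, whose 19S cap unfolds it and whose 20S core, built of rings of alpha and beta subunits, cuts it, while deubiquitinases take ubiquitin off and ubiquilins carry marked proteins to the proteasome. Neurons use the system to turn over synaptic and signalling proteins.

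The members on which the results turn most are Psma6 and Ubb, which differed between the strains, and Ubl3, which differed after stress. The 250 bases before their RefSeq start sites (GRCm38.p6) are shown because proteasome and ubiquitin genes are known to share promoter factors. Capitals mark CCAAT, the letters bound by the factor NF-Y, on either strand (ATTGG is CCAAT on the other strand). Psma6, at chr12:55383972-55384221 on the plus strand, held 2 matches, Ubb, at chr11:62550921-62551170 on the plus strand, held 1, and Ubl3, at chr5:148552789-148553038 on the minus strand, held none.
Psma6: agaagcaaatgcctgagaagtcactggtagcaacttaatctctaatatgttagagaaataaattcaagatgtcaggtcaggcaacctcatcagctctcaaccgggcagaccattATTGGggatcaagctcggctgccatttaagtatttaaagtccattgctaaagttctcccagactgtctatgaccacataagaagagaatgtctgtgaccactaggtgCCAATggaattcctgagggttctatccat
Ubb: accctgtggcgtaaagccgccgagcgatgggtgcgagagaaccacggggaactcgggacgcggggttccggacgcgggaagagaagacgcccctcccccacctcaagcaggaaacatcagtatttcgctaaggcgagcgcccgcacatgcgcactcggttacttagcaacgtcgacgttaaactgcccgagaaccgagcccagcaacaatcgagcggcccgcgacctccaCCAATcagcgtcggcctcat
Ubl3: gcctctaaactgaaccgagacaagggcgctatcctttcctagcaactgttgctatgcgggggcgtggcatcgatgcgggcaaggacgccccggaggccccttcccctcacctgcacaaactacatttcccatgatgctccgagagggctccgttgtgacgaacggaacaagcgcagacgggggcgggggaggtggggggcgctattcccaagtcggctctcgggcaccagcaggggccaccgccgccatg
Promoters were found for 96 of the 125 genes. CCAAT was present in 29 of these 96 (30.2%) and in 34.5% of all 27018 promoters of the same length. The antioxidant response element TGACNNNGC, known from proteasome genes under oxidative stress, was in 10.4% of the members and 10.2% of all. The heat shock element GAANNTTC was in 3.12% against 6.78%, and the glucocorticoid response element GNACANNNTGTNC in none of the 96 against 0.381%. Both strands were read, and the 4 motifs were counted independently of any overlap. Of the 9 genes with a promoter among the 11 that passed the test in a comparison, Psma6, Ubb and Cul4b held CCAAT and none held another of these motifs.

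Between the strains, 9 of the 200 clones differed, 4 higher in DBA/2J (Uba2, Psma6, Ubb and Cops5) and 5 lower (Cul4b, Ube2d1, Ubr1, Ube2m and Ube2h). A clone was called when limma's test, with Benjamini-Hochberg adjustment over all 22824 clones, gave an adjusted p below 0.05 and the pools differed 1.41-fold or more. By this rule 3.62% of all clones were called, 1.6% higher and 2.02% lower in DBA/2J, so that 9 of 200 (4.5%) is near the background. At an unadjusted p below 0.05, 35 of 200 members (17.5%) and 15.4% of all clones passed. The median log2 ratio of the 200 was 0.03 and that of all clones was 0.01. All 9 calls had the same sign in both dye orientations, but the 5 arrays with DBA/2J in Cy5 alone called 0 members and the 5 with DBA/2J in Cy3 alone called 1.

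**Figure D1:**
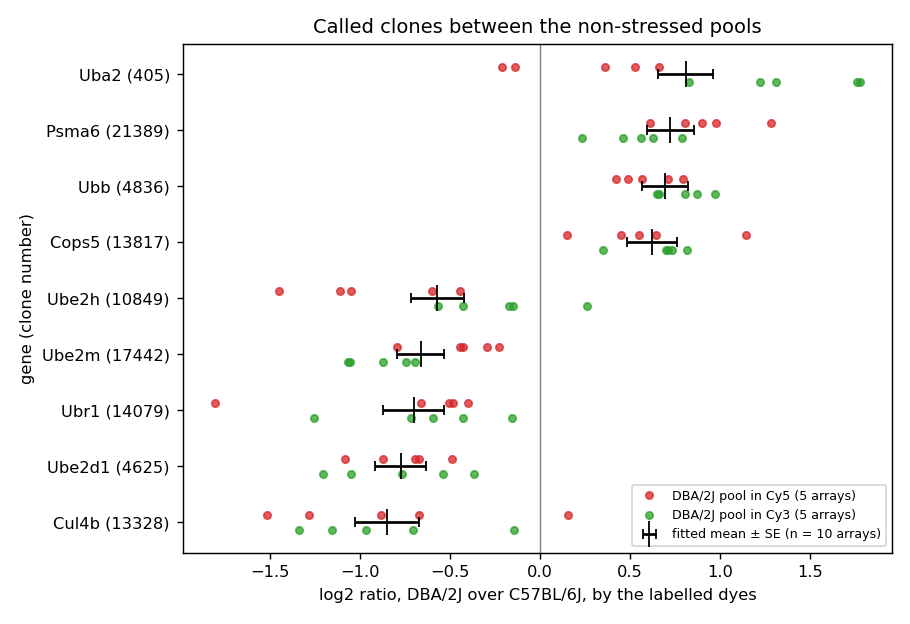
Log2 ratio of DBA/2J over C57BL/6J non-stressed pools on each of 10 arrays for the 9 called member clones, by dye orientation, with mean and standard error. Ubb, Psma6, Cops5, Ube2d1, Ube2m and Ubr1 lie on 1 side of 0 on all 10 arrays, and Ubr1 was above the empty spots in neither pool.

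Ubb, a polyubiquitin gene and so a source of ubiquitin itself, was called. Its log2 ratios of DBA/2J over C57BL/6J ran from a lowest of 0.42 through a median of 0.68 to a highest of 0.97, above 0 on all 10 arrays and above background in both pools on all 10. The mean was 0.69 (SE 0.13, limma adjusted p = 0.0062), a 1.62-fold higher level in DBA/2J. With loess run within each print tip the ratio was 0.46 with an adjusted p of 0.035, so that Ubb then missed the fold limit and was not called. Ubb encodes repeats of the ubiquitin unit that all ubiquitin genes share, so RNA of other ubiquitin genes may bind its spot, which these arrays cannot separate.

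Uba2, a subunit of the E1 that activates the ubiquitin-like SUMO, was higher in DBA/2J by its clone 405, with a mean of 0.81 (SE 0.15, adjusted p = 0.0075, 1.75-fold). The 10 ratios had a lowest value of -0.21, a median of 0.74 and a highest of 1.78, and the ratio depended on the dye, with a mean of 0.24 where DBA/2J was in Cy5 and 1.38 where it was in Cy3. Its second clone, 22341, was above background in both pools on every array and gave 0.17 (adjusted p = 0.70). The test used in the study's methods, run on the same values and adjusted in the same way, did not call clone 405 (adjusted p = 0.096).

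Of 34 clones of E2 conjugating enzymes, 3 were called and all 3 were lower in DBA/2J, while the median of the 34 was 0.07. Of all clones 3.62% were called and 2.02% were lower, and 3 calls are too few to set a direction for these enzymes. Ube2d1, a broadly acting E2 that works with many E3 ligases, was below 0 on all 10 arrays, with ratios of -1.20 at the lowest, -0.73 at the median and -0.37 at the highest. Its mean was -0.77 (SE 0.14, adjusted p = 0.0057, 1.71-fold), and it was above background on 6 arrays in DBA/2J and 9 in C57BL/6J. Ube2m, the E2 that passes Nedd8 to cullins, was below 0 on all 10 arrays by its clone 17442, between -1.07 and -0.23, with a mean of -0.66 (SE 0.13, adjusted p = 0.0095, 1.58-fold). Its other clones, 22863 and 6637, were above background in neither pool. Ube2h, an E2 first described for histones, had a mean of -0.57 (SE 0.15, adjusted p = 0.046) and ratios from -1.45 to 0.26, with 1 of 10 above 0, and was above background on 3 arrays in DBA/2J and 5 in C57BL/6J. That call was lost when any 1 of 8 of the 10 arrays was left out (adjusted p up to 0.11, kept only without replicate 5 or 10), with median centring (adjusted p = 0.090), without background subtraction (0.064), without the dye term (0.10) and by the methods' test (0.11).

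Cul4b, the scaffold of an E3 that takes part in DNA repair and chromatin turnover, was lower in DBA/2J by its clone 13328. The ratios had a lowest value of -1.51, a median of -0.92 and a highest of 0.16, 1 of 10 was above 0, and the mean was -0.85 (SE 0.18, adjusted p = 0.014, 1.80-fold). The clone passed background on 4 arrays in DBA/2J and 6 in C57BL/6J. Its clone 15327 gave 0.17 (adjusted p = 0.72), and the 9 cullin clones together had a median of -0.30, with 4 of 9 above 0. Ubr1, the E3 of the N-degron pathway, was called lower in DBA/2J by clone 14079 (adjusted p = 0.030, 0 of 10 arrays above 0) although neither pool passed background on any of the 10 arrays, so no fold is given. Without background subtraction it was not called (adjusted p = 0.060), nor when any 1 of 7 arrays was left out (adjusted p up to 0.081, kept only without replicate 4, 5 or 8). None of the 26 F-box clones was called, with a median of -0.02 and 13 above 0.

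Cops5, the catalytic subunit of the COP9 signalosome, was called higher in DBA/2J (adjusted p = 0.020, 10 of 10 arrays above 0). It passed background on 2 arrays in DBA/2J and on none in C57BL/6J, too few for a bound on its fold, and the call was lost without replicate 5 or without replicate 9 (adjusted p up to 0.058). The 13 clones of the complex had a median of 0.08, with 7 above 0. None of the 27 deubiquitinase clones was called, with a median of -0.05, 10 above 0 and 1 with an unadjusted p below 0.05.

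**Figure D2:**
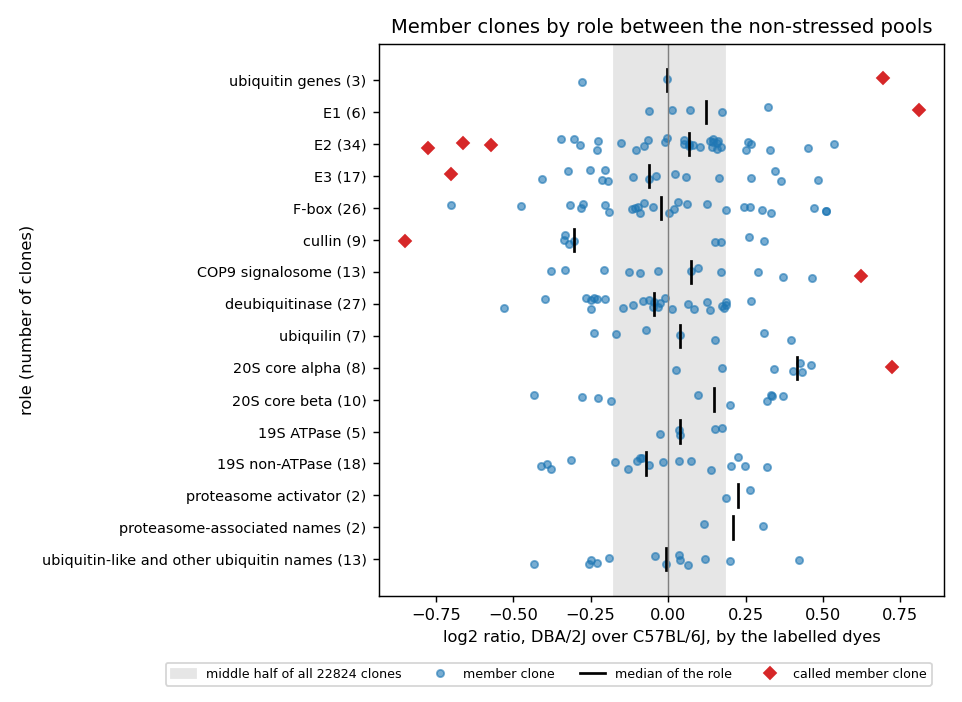
Log2 ratio of DBA/2J over C57BL/6J for each of the 200 member clones, grouped by role, with the median of each role as a bar, the called clones as diamonds and the range of the middle 50% of all 22824 clones shaded. The 20S alpha subunits lie to the right, with a median of 0.42, and the cullins have the lowest median, -0.30.

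Within the proteasome, Psma6 was the called subunit. Psma6, an alpha subunit of the 20S core, had ratios of 0.23 at the lowest, 0.71 at the median and 1.28 at the highest, above 0 on all 10 arrays, and it passed background in both pools on all of them. Its mean was 0.72 (SE 0.13, adjusted p = 0.0065, 1.65-fold higher in DBA/2J). The other alpha subunits had means above 0, down to 0.03 for Psma3, without being called. All 8 clones of the 7 alpha genes had a mean above 0, with a median of 0.42. Of the 8, 5 had an unadjusted p below 0.05, which 15.4% of all clones passed. These clones were read on the same pools and arrays and are not independent replicates, and their common side was not tested. Psma4 gave 0.43 (adjusted p = 0.12, 10 of 10 arrays above 0), Psma5 0.40 (adjusted p = 0.14, 9 of 10) and Psma7 0.34 (adjusted p = 0.23, 9 of 10). Psma3, above background in both pools on all 10 arrays, gave 0.03 (adjusted p = 0.96), and Psma1 gave 0.17 by the clone bright on more arrays. The other Psma1 clone, 23421, gave 0.43 and passed background on 3 arrays in DBA/2J and none in C57BL/6J. The beta subunits, which hold the cutting sites, were spread to both sides, with 6 of 10 clones above 0 and a median of 0.15, the highest being 0.37 for a clone of Psmb4 (adjusted p = 0.26). The 19S cap stayed near 0, with a median of 0.04 for 5 ATPase clones and -0.07 for 18 non-ATPase clones. Psmd4, the ubiquitin receptor of the cap, had 3 clones, each below 0, and the lowest adjusted p was 0.38.

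**Figure D3:**
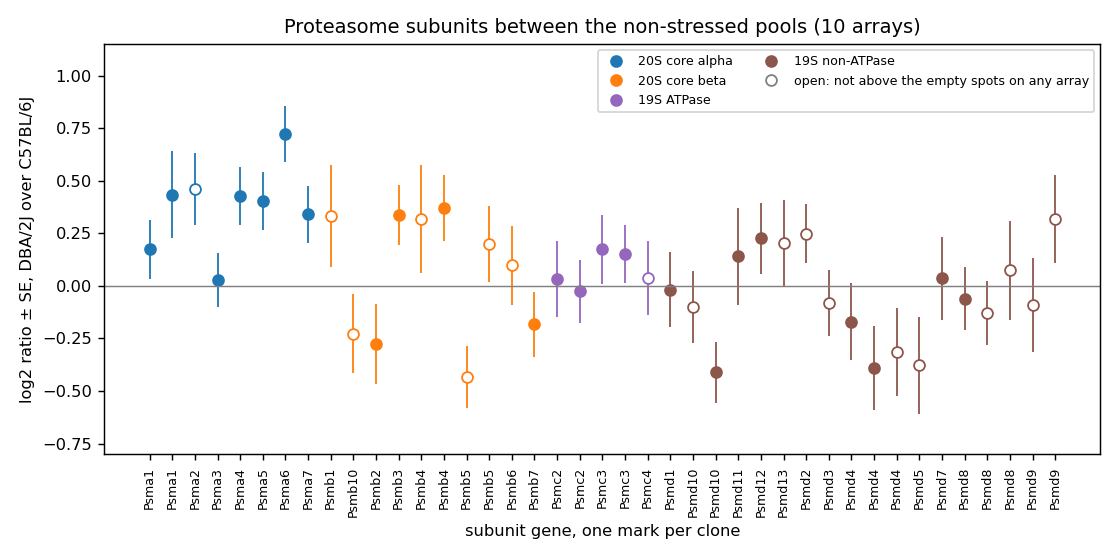
Mean log2 ratio of DBA/2J over C57BL/6J non-stressed pools, with its standard error over 10 arrays, for the 41 clones of the 20S core and 19S cap, coloured by role and open where the clone was above the empty spots on none of these arrays. All 8 alpha clones are above 0, and Psma6 at 0.72 is the highest and the 1 called.

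Markers of other cell types also differed between these non-stressed pools. Of 28 astrocyte clones 4 were called higher in DBA/2J, all of them Glul, and the summed intensity of the list was higher in DBA/2J on 10 of 10 arrays, at 80346 to 131685 in DBA/2J and 61486 to 93148 in C57BL/6J. Of 30 oligodendrocyte clones 7 were called higher, clones of Mbp among them, and 3 of Cnp1, Mobp and Gsn lower, and the summed intensity was lower in DBA/2J on all 10 arrays, at 55061 to 81388 in DBA/2J and 69216 to 122782 in C57BL/6J. Of 5 blood clones 2 of Hbb-b1 were called higher, with sums higher in DBA/2J on 9 of 10 arrays, at 3326 to 5658 in DBA/2J and 2414 to 7600 in C57BL/6J, and of 7 thalamus clones 1 of Tcf7l2 was called higher, with sums higher in DBA/2J on 10 of 10, at 39932 to 65332 in DBA/2J and 28254 to 63369 in C57BL/6J. Of 6 clones of PVN neurons 1 of Arnt2 was called higher, with sums higher in DBA/2J on 9 of 10, at 3039 to 4806 in DBA/2J and 2171 to 3533 in C57BL/6J. Oxt, another gene of that list, was not above background on any of these arrays. No clone of the 12 endothelial and 10 microglial clones was called. However, 7 of the 9 endothelial and mural genes and 5 of the 9 microglial genes were above background on none of these arrays. Here and below, a sum weighs bright clones most. Over all 50 arrays the brightest astrocyte clones were of Glul, with mean log2 intensities of 14.93 for clone 3304 and 13.47 for clone 16133. The brightest oligodendrocyte clones were of Cnp1 (clone 13431, 15.08) and Mobp (clone 13452, 14.80). The astrocyte sums are therefore no measure separate from Glul. The part of these marker differences in the member values was not tested.

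After stress, no member was called in DBA/2J at 4 h, where 0.153% of all clones were, in DBA/2J at 8 h (0.158%) or in C57BL/6J at 8 h (0.0832%), by limma with Benjamini-Hochberg adjustment. At an unadjusted p below 0.05, 25 members (12.5%) passed in DBA/2J at 4 h against 10.7% of all clones, and 20 (10%) in C57BL/6J at 8 h against 9.28%. In DBA/2J at 8 h 20 members (10%) passed, a smaller share than the 2748 of all 22824 clones that did. With scan day as a random block, 4 members were called in DBA/2J at 4 h and 1 in C57BL/6J at 8 h, though scan day was partly tied to dye orientation in both. The methods' test called none in any of these 3 comparisons.

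In DBA/2J at 4 h the smallest p belonged to Psmc3ip, a protein named for binding a 19S ATPase that acts in meiotic recombination. Its clone 15066 had a mean of -0.62 (SE 0.14, adjusted p = 0.11), from -1.32 through a median of -0.59 to -0.18, all below 0, and passed background on 4 arrays in the stressed pool and 7 in the non-stressed pool. With scan day as a block the adjusted p was 0.026. The second clone of Psmc3ip, 16651, gave -0.05. Ube2h gave -0.53 (adjusted p = 0.16, 1 of 10 above 0), and Ubb gave -0.40 (adjusted p = 0.22), below 0 on all 10 arrays, between -0.69 and -0.22. In DBA/2J at 8 h, Ubqln2, a ubiquilin, had -0.40 by clone 8784 (adjusted p = 0.13, 0 of 10 above 0), above background on 2 arrays in the stressed pool and 10 in the non-stressed pool.

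At 4 h after stress in C57BL/6J, 2 of 200 members were called (1%, against 0.289% of all clones) and both were lower in the stressed pool, as were 0.272% of all clones. Ubl3, a ubiquitin-like protein anchored in membranes that sorts proteins into extracellular vesicles, fell, by the labelled dyes, by 0.85 on the log2 scale in stressed C57BL/6J mice by clone 24182 (SE 0.09, limma adjusted p = 0.0049, 1.81-fold). Its ratios of stressed over non-stressed had a lowest value of -1.13, a median of -0.88 and a highest of -0.43, all below 0, and both pools passed background on all 10 arrays. A second Ubl3 clone, 782, had a mean of -0.78 and a wider spread, with a lowest of -1.70, a median of -0.78 and a highest of 0.63 (SE 0.19, adjusted p = 0.13, 1 of 10 above 0).

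Ubqln2, which shuttles ubiquitin-marked proteins to the proteasome, was, by the labelled dyes, lower in stressed C57BL/6J mice at 4 h by clone 8784. Its ratios ran from -1.23 through a median of -0.64 to -0.23, all below 0, with a mean of -0.68 (SE 0.10, adjusted p = 0.021, 1.60-fold). The call was lost when any 1 of 7 arrays was left out, with an adjusted p of up to 0.064, and stayed without replicate 1, 4 or 7. The clones 9442, 19448 and 22812 of the same gene had no call, and of these only 22812 passed background on all arrays, at 0.14 (adjusted p = 0.68). Just outside the threshold, the scaffold Cul2 had -0.54 (clone 16415, adjusted p = 0.065, 0 of 10 above 0) and the deubiquitinase Usp25 had -0.61 (clone 11452, adjusted p = 0.065, 1 of 10 above 0). The other clone of Cul2, 20404, gave -0.04, and the other clones of Usp25, 2379 and 7511, gave 0.00 and -0.29. Ubb was above 0 on all 10 arrays, at 0.24 (adjusted p = 0.23), and was not called.

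The proteasome at 4 h in C57BL/6J had no called subunit. Of 18 clones of the 19S non-ATPase subunits 15 were above 0, with a median of 0.13, as were 11 of 13 COP9 clones, with a median of 0.12, while 2 of 9 cullin clones were above 0, with a median of -0.25. The median of all clones was 0.00 on the same scale. The 200 members held 31 clones (15.5%) with an unadjusted p below 0.05, against 12.3% of all clones. No clone of any marker list was called here, and the summed astrocyte intensity was 107419 to 199273 in the stressed pool and 98654 to 182477 in the non-stressed pool, higher under stress on 10 of 10 arrays. The oligodendrocyte sums were 70113 to 148323 under stress and 72100 to 145012 without, higher on 2 of 10. Their part in the member values was not tested.

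In C57BL/6J at 8 h the smallest p belonged to Ube3a, the E3 ligase lost in Angelman syndrome. Its clone 1706 was above 0 on 10 of 10 arrays, with a lowest ratio of 0.28, a median of 0.70 and a highest of 1.78, and a mean of 0.82 (SE 0.15, adjusted p = 0.099). With scan day as a block the adjusted p was 0.039. Scan day and dye largely went together there. On 1 day 4 arrays, all with the stressed pool in Cy5, were scanned, and on the other 5 with it in Cy3 and 1 in Cy5. Of its other 5 clones only 2084 and 18951 passed background, at 0.37 (adjusted p = 0.40) and 0.01 (adjusted p = 0.99). Uba2 followed, with 0.52 by clone 405 (adjusted p = 0.15, 9 of 10 above 0), while its clone 22341 gave 0.06.

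**Figure D4:**
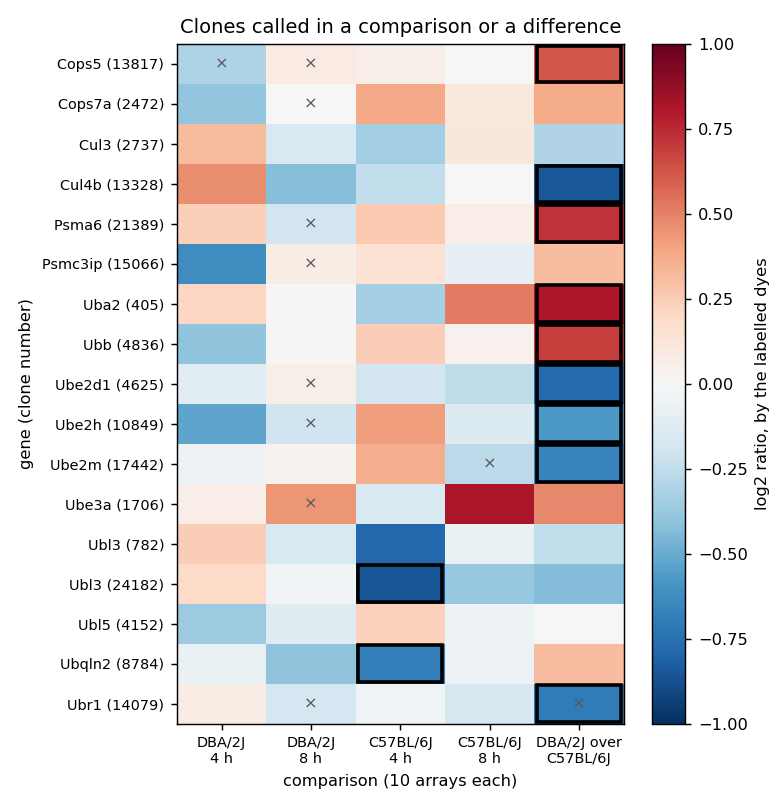
Mean log2 ratio of the 17 member clones called in any comparison or difference, in each of the 5 comparisons, with called cells boxed and a cross where neither pool was above the empty spots. The strain comparison has 9 boxed cells, DBA/2J after stress has none, and C57BL/6J at 4 h has those of Ubl3 and Ubqln2.

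The response at 4 h was then set against itself between the strains, as DBA/2J minus C57BL/6J, over the 20 arrays of both. Of the 200 members 9 differed (4.5%, against 2.34% of all clones), 4 with a higher ratio in DBA/2J and 5 with a lower one. The difference was 1.04 for Ubl3 clone 24182 (SE 0.16, adjusted p = 0.0014), with responses of 0.19 in DBA/2J and -0.85 in C57BL/6J. It was 1.03 for Ubl3 clone 782 (SE 0.23, adjusted p = 0.017), with 0.24 in DBA/2J and -0.78 in C57BL/6J, so both clones of the gene passed and lay above 0 on 7 of 10 arrays in DBA/2J. Ubqln2 clone 8784 differed by 0.62 (adjusted p = 0.032), at -0.06 in DBA/2J and -0.68 in C57BL/6J. Cul3, the scaffold of E3 ligases that use BTB proteins, differed by 0.66 (clone 2737, adjusted p = 0.048), at 0.31 in DBA/2J and -0.34 in C57BL/6J.

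The 5 with a lower ratio in DBA/2J were below 0 there and above 0 in C57BL/6J. Ubb differed by -0.64 (SE 0.12, adjusted p = 0.0045), with -0.40 in DBA/2J, where 0 of 10 arrays lay above 0, and 0.24 in C57BL/6J, where 10 of 10 did, so the arrays of the strains did not overlap. Ube2h differed by -0.94 (SE 0.19, adjusted p = 0.0067), with -0.53 in DBA/2J and 0.42 in C57BL/6J. Cops7a, a subunit of the COP9 signalosome, differed by -0.78 (clone 2472, SE 0.17, adjusted p = 0.014), with -0.39 in DBA/2J, below 0 on all 10 arrays, and 0.38 in C57BL/6J. Psmc3ip differed by -0.77 (adjusted p = 0.0086), with -0.62 in DBA/2J and 0.15 in C57BL/6J, and Ubl5, a ubiquitin-like protein of RNA splicing, by -0.59 (adjusted p = 0.033), with -0.36 in DBA/2J and 0.23 in C57BL/6J.

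The non-stressed pools of this difference were also those of the strain comparison, so a deviation of such a pool enters both with opposite signs. In the strain comparison the sign was opposite for Ubb (0.69), Cops7a (0.37), Psmc3ip (0.31), Cul3 (-0.30) and Ubl3 clones 24182 (-0.43) and 782 (-0.25). It was the same for Ube2h (-0.57), Ubqln2 (0.31) and Ubl5 (-0.01). Part of the list of called differences lay near the threshold. Leaving out single arrays ended the call of Cul3 in 16 of 20 cases (adjusted p up to 0.092), of Ubl5 in 12 (up to 0.069) and of Ubqln2 in 10 (up to 0.070), and ended none of the other 6. Cul3 also lost its call under print-tip loess (adjusted p = 0.080), median centring (0.066), no background subtraction (0.058), no dye term (0.15) and the deposited processed values (0.071), and Ubqln2 under median centring (0.075) and no dye term (0.067), as did Ubl5 with no dye term (0.073). Among marker clones the same difference was called for Trh (-1.08), Aldoc (-0.83) and 2 clones of Glul (-0.70 and -0.61), and Trh was lower at 4 h in DBA/2J (-0.75, adjusted p = 0.031). Summed over all 28 astrocyte clones, the stressed pool was lower than the non-stressed pool on 10 of 10 arrays in DBA/2J, at 70429 to 117863 under stress and 77491 to 130010 without, and higher on 10 of 10 in C57BL/6J. The 6 PVN neuron clones summed to 2207 to 4581 under stress and 2726 to 5440 without in DBA/2J, with Oxt not above background, and to 3313 to 5504 under stress and 2993 to 5704 without in C57BL/6J. The part of these markers in the member differences was not tested. The arrays of different comparisons were scanned on different days, so scan day and comparison cannot be told apart in any difference.

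**Figure D5:**
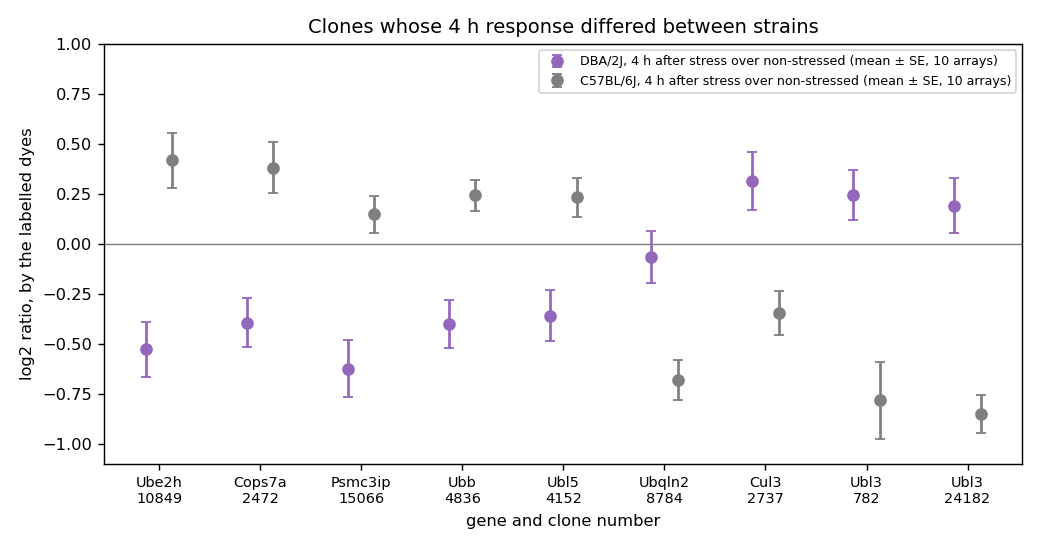
Mean log2 ratio of stressed over non-stressed pools at 4 h, with its standard error over 10 arrays, in DBA/2J and in C57BL/6J for the 9 member clones whose response differed between the strains. Ubl3 clone 24182 averages 0.19 in DBA/2J and -0.85 in C57BL/6J, and Ubb -0.40 in DBA/2J and 0.24 in C57BL/6J.

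At 8 h the strain difference of the response was called for no member, against 0.6% of all clones, by limma, while print-tip loess called 1 and a joint fit of all 50 arrays 1. Between the times, 2 members differed in DBA/2J (8 h minus 4 h, 1%, the share of all clones also being 1%). Cul4b clone 13328 was lower at 8 h (adjusted p = 0.012), with 0.46 at 4 h (9 of 10 arrays above 0). At 8 h 1 of 10 was above 0 but the clone passed background on 1 array in the non-stressed pool and none in the stressed pool, so no size is given. Psmc3ip clone 15066 was also called, higher at 8 h (adjusted p = 0.045), but at 8 h it passed background in neither pool, and the call was lost in 17 of 20 cases when an array was left out (adjusted p up to 0.083). Markers moved between these times too. The astrocyte sums were higher under stress on 9 of 10 arrays at 8 h, at 109433 to 144698 in the stressed pool and 100073 to 147151 in the non-stressed pool, against 0 of 10 at 4 h. The oligodendrocyte sums were higher under stress on 0 of 10 arrays at 8 h, at 86431 to 121111 in the stressed pool and 101419 to 152010 in the non-stressed pool, against 7 of 10 at 4 h, at 76616 to 99821 in the stressed pool and 62914 to 105205 in the non-stressed pool. Of the marker clones, 1 of 4 of Aldoc (clone 16219, 0.70) and 1 of Trh (adjusted p = 0.046, not above background at 8 h) were called higher at 8 h than at 4 h. At 8 h Gfap, Aqp4, Mog and Oxt were also not above background on any array. The part of these markers in the member differences was not tested.

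In C57BL/6J 3 members differed between the times (8 h minus 4 h, against 0.495% of all clones). The differences were 0.97 for Ube3a clone 1706 (SE 0.20, adjusted p = 0.027), with -0.15 at 4 h and 0.82 at 8 h, 0.62 for Ubqln2 clone 8784 (SE 0.14, adjusted p = 0.041), with -0.68 at 4 h and -0.06 at 8 h, and 0.85 for Uba2 clone 405 (SE 0.19, adjusted p = 0.042), with -0.34 at 4 h and 0.52 at 8 h. At 4 h Uba2 was above background on 1 array in the stressed pool and 2 in the non-stressed pool. Leaving out single arrays ended these calls in 7, 18 and 16 of 20 cases, with adjusted p up to 0.066, 0.091 and 0.095. The oligodendrocyte sums were higher under stress on 0 of 10 arrays at 8 h, at 55841 to 87410 in the stressed pool and 63873 to 94957 in the non-stressed pool, against 2 of 10 at 4 h, and 1 of the 30 clones of that list was called between the times. The astrocyte sums were higher under stress on 5 of 10 arrays at 8 h, at 75859 to 125772 in the stressed pool and 79813 to 111356 in the non-stressed pool, against 10 of 10 at 4 h. Their part in these differences was not tested.

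Of the 49 genes with several clones, all clones had the same sign in 23 in the strain comparison, 19 in DBA/2J at 4 h, 20 in DBA/2J at 8 h, 21 in C57BL/6J at 4 h and 15 in C57BL/6J at 8 h, and 30 of the 49 had just 2 clones. The range within a gene had a median of 0.32 in the strain comparison and of 0.21 in C57BL/6J at 4 h, and reached 1.09 in C57BL/6J at 8 h. In none of the 5 comparisons did a gene have 2 called clones, whereas in the strain difference at 4 h Ubl3 did. The dye orientations of a comparison gave the same sign for 52.5% of the 200 clones in the strain comparison and for 43.5% to 46.5% in the stress comparisons. Across the 200 clones, which are not independent replicates, the means of the 2 orientations had correlations of 0.11 in the strain comparison, -0.22 in DBA/2J at 4 h, -0.17 in DBA/2J at 8 h, 0.01 in C57BL/6J at 4 h and -0.29 in C57BL/6J at 8 h. Over all clones these were 0.12, -0.11, 0.01, -0.02 and -0.26 in the same order, so weak agreement was not particular to the members.

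The same system also has genes that the name rule did not take, of which 33 were on the arrays with 54 clones. In the strain comparison 1 of the 54 was called higher and none lower, Nedd4l, an E3 of ion channels, at 0.69 by clone 5068 (adjusted p = 0.0075, 10 of 10 above 0), while its other 3 clones were not called. In DBA/2J at 4 h 1 was called lower and none higher, Psmc5, an ATPase of the 19S cap, at -0.93 (adjusted p = 0.027). None was called in DBA/2J at 8 h or in C57BL/6J at either time. In the strain difference at 4 h 2 were lower in DBA/2J, Nedd8 (-0.72, adjusted p = 0.0031) and Psmc5 (-0.86, adjusted p = 0.0053), and between the times in DBA/2J 2 were higher at 8 h than at 4 h, Nedd8 (0.61, adjusted p = 0.026) and Rad23b, a carrier of ubiquitin-marked proteins (0.68, adjusted p = 0.017).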

How the data were processed

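Spotted cDNA arrays (24192 spots, 1368 of them controls) carried Cy3 and Cy5 labelled RNA. The authors deposited scanner intensity values per spot and channel with local background, quantified with QuantArray, and a table of processed log2 ratios, deposited as values per clone, which was used as an alternative only. Intensities were background-corrected (normexp, offset 50), normalised by loess within each array with controls weighted 0, turned to stressed over non-stressed or DBA/2J over C57BL/6J by the labelled dyes, and fitted with limma 3.58.1 in R 4.3.3 (lmFit, eBayes) with a dye term. Each comparison was fitted alone over 10 arrays, and each difference over 20 arrays with a mean and a dye term per comparison. Called clones had a Benjamini-Hochberg adjusted p below 0.05 over 22824 clones and an absolute log2 ratio of at least 0.5. The number of arrays limits the precision. A probe's fold below background was bounded, where possible, by the array's lowest signal above the empty spots. The fit was tested on simulated data.

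Members were taken by clone name, without ubiquinol genes and 1 protease, and roles by clone name. Some members and markers are counted but their own values are not reported here. Symbols follow the files, updated through RefSeq. The genes named were every called member, the members with the 3 smallest p in each comparison, members in the study's lists, all clones of called genes and the brightest of each role. A few values outside this rule were added after they were seen. Members, lists and tests were chosen with earlier results of these data known. Alternatives were other background and normalisation settings, no dye term, the processed values, dim clones left out, the methods' one-sample t-test (with the adjusted threshold used here, as the study's Z-score limit was not applied), each orientation alone, scan day as a random block, a joint fit, a replicate block and leaving out each array.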

Additional observations from a re-analysis of the deposited data

Results flagged for a closer look

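A test of the difference itself, fitted over 20 arrays, found responses to stress that differed between the strains at 4 h, as DBA/2J minus C57BL/6J. The log2 differences were 1.04 and 1.03 for Ubl3 clones 24182 and 782, 0.66 for Cul3, 0.62 for Ubqln2, -0.59 for Ubl5, -0.64 for Ubb, -0.77 for Psmc3ip, -0.78 for Cops7a and -0.94 for Ube2h. The non-stressed pools of this strain difference were also those of the strain comparison, where they enter with the opposite sign. The same kind of test found responses that differed between the times, as 8 h minus 4 h. In DBA/2J these were -0.89 for Cul4b and 0.70 for Psmc3ip, which are fitted values and no folds, since at 8 h neither clone passed the empty spots in the stressed pool and just Cul4b did so in the non-stressed pool, on 1 array. In C57BL/6J they were 0.97 for Ube3a, 0.85 for Uba2 and 0.62 for Ubqln2. Second clones of Cul3 and Psmc3ip at 4 h, and of Uba2 in C57BL/6J, lay near 0. Among the named clones no array stood far from the other 9 of its comparison in the 21 tests of this made.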

How the results depend on the processing

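Turning the sign of every ratio, as the published direction would have it, gave Ubb -0.69 between the strains and changed no size. The 9 calls between the strains became 0 and 1 in the 5 arrays with DBA/2J in Cy5 and in Cy3, and 0 with each orientation averaged into 1 array. The 2 calls in C57BL/6J at 4 h became 0 in each of these 3 settings, and 4 with the processed values, which hold 160 of the 200 clones, and with the methods' t-test. Scan day as a random block gave 4 calls in DBA/2J at 4 h and 1 in C57BL/6J at 8 h, and a joint fit of 50 arrays gave 2 in DBA/2J at 4 h and 3 in C57BL/6J at 8 h, against 0 in both comparisons. In both, scan day was partly tied to dye orientation. For the strain difference at 8 h, print-tip loess and the joint fit gave 1 each, against 0. The 2 calls between times in DBA/2J became 1 with print-tip loess and 1 without the dye term, and the 3 in C57BL/6J became 0 with print-tip loess, 1 with median centring and 1 without the dye term. Same-numbered arrays did not deviate together (correlations from -0.016 to 0.021, with at most 1 of 10 arrays closest to its own number), and with a replicate block and no dye term the calls were 1 of 9 in the strain difference at 4 h and 0 between times in each strain. Leaving out each array gave 6 to 9 calls between the strains, 1 to 3 in C57BL/6J at 4 h, 6 to 10 in the strain difference at 4 h, 1 to 2 between times in DBA/2J and 0 to 2 in C57BL/6J, and 0 to 0 in the other stress comparisons and the strain difference at 8 h. Over clones named for a call or for a small p, 370 of 490 such fits kept their side of the threshold. A call was lost in 120, and none changed direction. The 490 include clones that were not called and had no call to lose, so 370 of 490 overstates how often a call held. With 1 pool per condition, the spread between animals is unknown.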
